A study of Mus musculus with 37 samples.

Results

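The genes described here are 9 activity-induced early genes: the AP-1 factors Fos, Fosb, Fosl2, Jun, Junb, Jund and Atf3, the synaptic effector Arc and the neuronal factor Npas4. They were chosen by symbol, each matched 1 row of the 56980 genes in the count table, and all 9 passed the filter on low counts that left 19332 genes for testing. RNA with poly(A) tails was sequenced from C57BL/6J mice, all male and wild type. Brain is the tissue in the labels, narrowed by the title to the medial prefrontal cortex, a frontal region with a role in reward. The 8 groups crossed age with the drink and the injection. Adolescents began at postnatal day 25 and adults at postnatal day 55, the drink was plain water (H2O) or oral antibiotics (Abx), whose names the labels do not give, and the subcutaneous injections over 5 days were saline or morphine at 15 mg/kg, an opioid agonist. How long after the last injection the tissue was taken is not stated in the labels.

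Immediate early genes are transcribed within minutes of a stimulus without new protein synthesis. In neurons, calcium entry and growth factor signalling act through the serum response factor and CREB on their promoters. Fos and Jun proteins pair to form AP-1, a transcription factor that drives a later wave of genes. Fosb is known for a truncated, long-lived protein that builds up in reward regions with repeated exposure to drugs. Arc acts at synapses on AMPA receptor traffic, and Npas4 is turned on by calcium in neurons and acts on inhibitory synapses. Because the RNA came from bulk tissue, fewer cells with induced genes and less RNA per cell cannot be told apart in any value below.

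Of 37 libraries, 2 held fewer than 1000000 counts (25165 in adolescent antibiotics saline replicate 3 and 58764 in adult antibiotics morphine replicate 4) and were left out. The other 35 held 10630727 to 31560468 counts, with 3 libraries in each of the adolescent antibiotics saline and adult water saline groups, 4 in adult antibiotics morphine and 5 in each of the other 5 groups. The cortical excitatory marker list (7 of 7 genes found) summed to 3911 to 6996 CPM (counts scaled to a library of 1000000) over these libraries. Adolescent water saline replicate 1 stood apart: it had the lowest cortical sum and a striatal marker sum of 1731 CPM, against at most 265 CPM in any other library. Pancreatic islet reads were seen in 7 adolescent libraries, with 415 to 998 counts of Ins1 and Ins2, against at most 10 counts in the other 28. These were water saline replicate 5, water morphine replicates 3 and 5, antibiotics saline replicate 1 and antibiotics morphine replicates 1, 3 and 4. The antibiotics morphine group thus held more of them than any other group. The labels do not say whether replicates came from separate mice, so p-values measure the spread between these libraries, which may be partly technical. All levels are CPM on TMM-scaled totals, and all differences are log2 differences with their standard error (SE) from 1 edgeR quasi-likelihood fit of the 35 libraries. Adjusted p is the Benjamini-Hochberg value over the 19332 genes, with a threshold of 0.05.

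Promoter sequences were looked up because several of these genes moved together from library to library. RefSeq on GRCm38.p6 gave a sequence for 8 of the 9 genes, all except Arc. The 250 bases before the start were searched on both strands for the letters TGACGTCA (a full CRE, the CREB site), TGACGT (the CRE core, contained in the full CRE), TGANTCA (an AP-1 site), TATAAA (where the basal machinery binds) and a CArG box (the serum response factor site). The sequences of Fos, the classic reporter of neuronal activity, and of Junb, the member with the highest correlation with it over all 35 libraries, are given with matches in capitals. The Fos sequence is chr12:85473640-85473889 on the + strand, and the Junb sequence is chr8:84978749-84978998 on the - strand.
Fos: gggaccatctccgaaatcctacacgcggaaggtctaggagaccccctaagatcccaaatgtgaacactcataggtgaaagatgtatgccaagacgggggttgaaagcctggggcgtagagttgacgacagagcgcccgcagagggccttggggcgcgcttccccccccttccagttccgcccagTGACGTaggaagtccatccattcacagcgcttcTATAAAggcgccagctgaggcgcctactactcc
Junb: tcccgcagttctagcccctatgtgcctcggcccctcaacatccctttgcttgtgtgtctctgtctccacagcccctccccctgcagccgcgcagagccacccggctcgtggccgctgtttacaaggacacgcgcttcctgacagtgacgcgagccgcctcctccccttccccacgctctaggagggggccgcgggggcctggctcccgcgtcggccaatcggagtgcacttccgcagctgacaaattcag
Fos held 1 CRE core, 66 to 61 bases before the start, and TATAAA 33 to 28 bases before it. Junb held none of the motifs. In Npas4 the window held 2 CRE cores on opposite strands, 180 to 175 and 169 to 164 bases before the RefSeq start, with 5 bases between them. Only the 30 bases around this pair are given, chr19:4990128-4990157 on the - strand, because GENCODE M21 starts an exon of Npas4 farther upstream.
Npas4 site: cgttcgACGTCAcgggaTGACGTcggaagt
Atf3 had 1 CRE core, 8 to 3 bases before its start. Fosb, Fosl2, Jun and Jund had no match in these windows, and the Jund start in RefSeq lies upstream of that in GENCODE M21. The Fosl2 and Atf3 genes begin farther upstream in GENCODE M21, so their windows lie inside the genes as drawn there. Among all 32851 promoters of the same length, 6.47% held a CRE core, 1.55% a full CRE, 6.75% the AP-1 letters, 12.4% TATAAA and 1.47% a CArG box. These matches describe letters in a short window, and none of the 8 windows held a full CRE, an AP-1 site or a CArG box.

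The genes differed widely in level. Per kilobase of exon in GENCODE M21, the median over the 35 libraries was 97.1 CPM for Jund, 48.2 for Arc, 25.3 for Junb, 10.9 for Jun, 8.44 for Fos, 4.03 for Npas4, 2.91 for Fosl2, 2.14 for Fosb and 0.266 for Atf3. Jund, the member that is made without stimulation in most tissues, ranged from 78.3 to 121 CPM per kilobase and Arc from 13.6 to 83.0, so the ranges of the highest pair met only at their edges. The ranges of the other neighbours in this order overlapped, except that Atf3 at 0.0621 to 0.411 lay below all others. Atf3, a stress-induced factor, had 2 to 24 counts per library, too few to rank single libraries.

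The spread between libraries also differed by gene. The SD of log2 CPM within groups was 0.84 for Npas4, 0.62 for Arc, 0.53 for Fos and 0.46 for Junb, against a median of 0.17 over all genes tested. Npas4 was the 141st most variable of the 19332 genes by this measure. Among the 1000 genes nearest to each in level, Npas4 stood at the 99.7th percentile, Arc and Junb at the 99.6th and Fos at the 98.6th. Fosb (0.22), Fosl2 (0.28) and Jun (0.14) had smaller SDs, at the 84.8th, 97.2nd and 82.0th percentile of genes of their own level. Jund had an SD of 0.09, near the middle of genes of its own level at the 54.9th percentile. Atf3 had an SD of 0.46, at the 22.7th percentile of its own low level. Npas4 ran from 7.18 to 48.1 CPM over the 35 libraries, a 6.69-fold range, while Jund ran from 131 to 202 CPM, a 1.54-fold range. The same log2 difference is therefore measured less precisely in Npas4, Arc, Fos and Junb than in Jund.

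**Figure D1:**
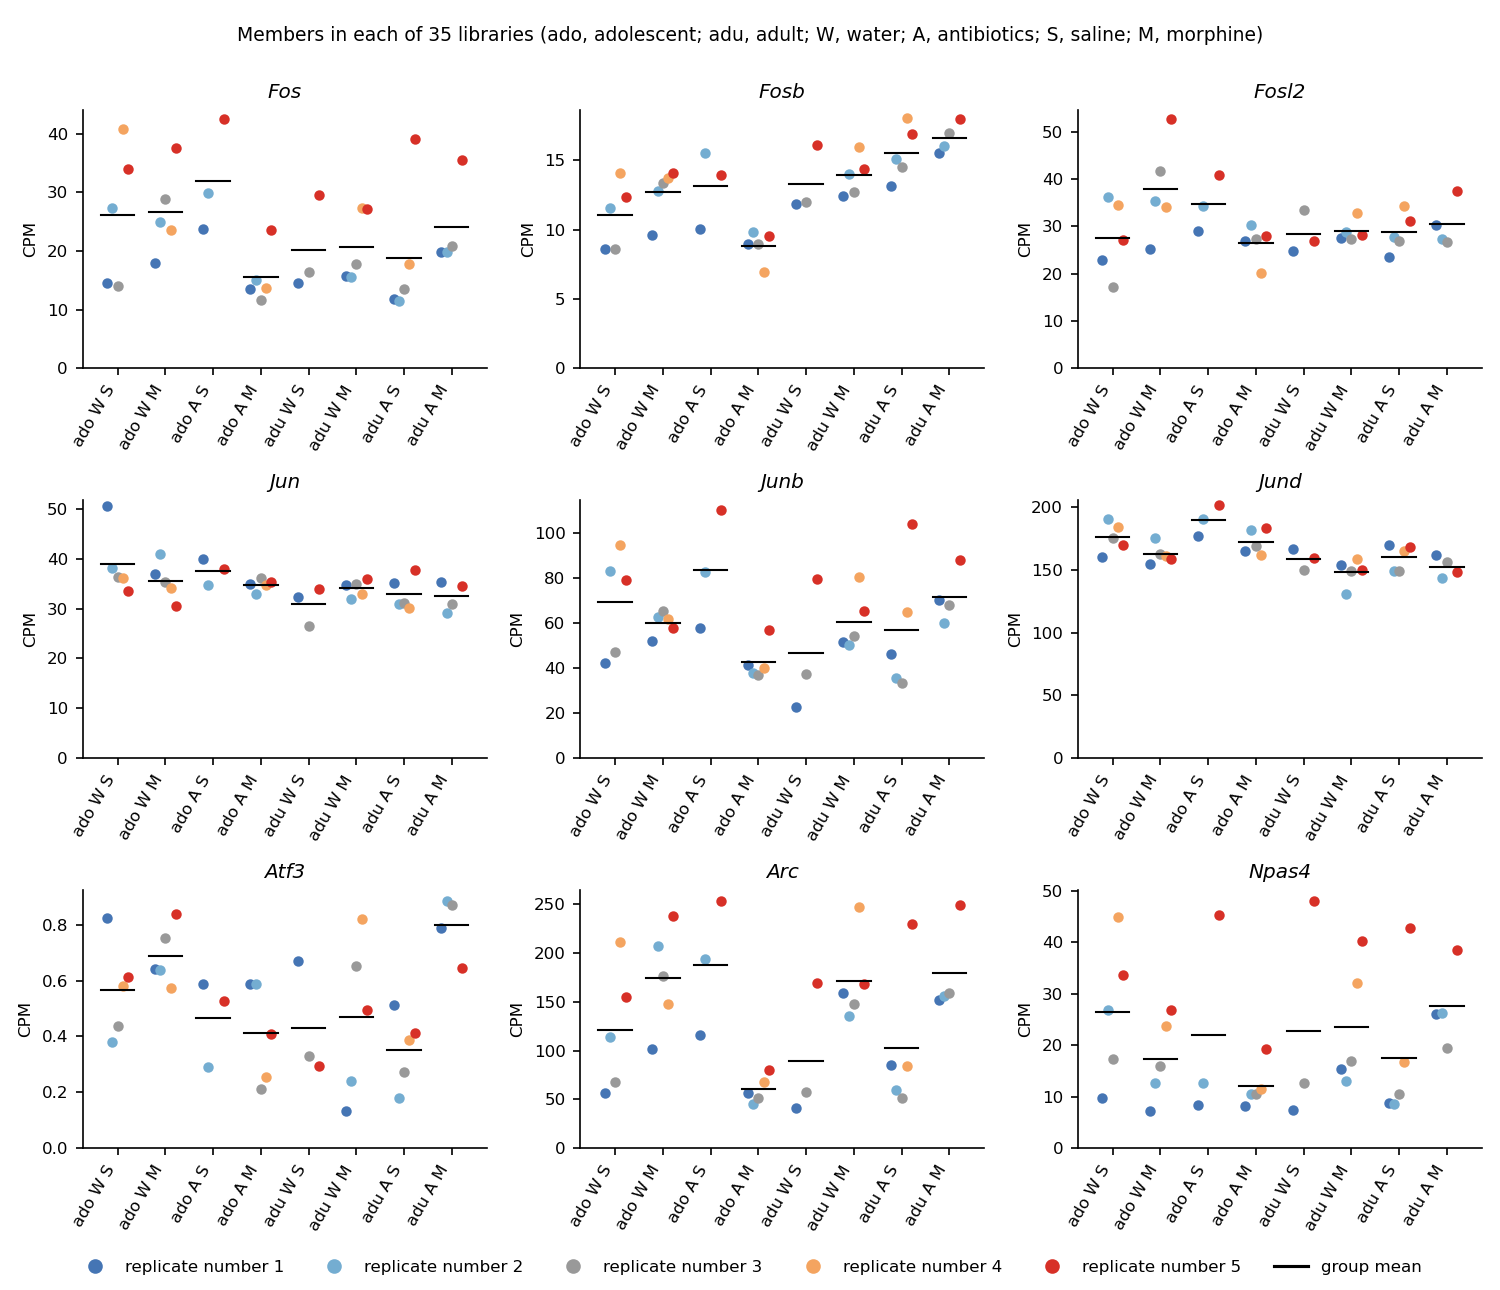
CPM of the 9 genes in each of the 35 libraries (vertical axis, from 0), by group (horizontal axis), with points coloured by the replicate number in the labels and bars at group means. The Arc points of the adolescent antibiotics morphine group lie between 45.5 and 79.9 CPM, below all 3 points of the adolescent antibiotics saline group, and the points of replicate number 5 top most groups for Npas4, Fos and Arc.

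The first comparison asked whether the genes differed between morphine and saline in mice of 1 age on 1 drink. No member passed the threshold in any of the 4 such comparisons in the edgeR fit of the 8 groups, where 0.331% of all genes passed in adolescents on water, 0.0466% in adolescents on antibiotics and 0% in both adult comparisons. At an unadjusted p under 0.05 the members numbered 2 in adolescents on water (11.6% of all genes), 0 in adults on water (2.89%), 5 in adolescents on antibiotics (7.57%) and 1 in adults on antibiotics (7.88%). DESeq2 called none in the 4 comparisons. Limma-voom with sample weights called Fosb and Arc in adolescents on antibiotics, and none elsewhere.

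In adolescents on antibiotics all 9 members had a log2 difference below 0 between morphine and saline, with a median of -0.57 against 0.00 over all genes tested. The 3 saline libraries of this group carry the numbers 1, 2 and 5. Arc, the synaptic effector, was at 116, 194 and 254 CPM in them and at 56.6, 45.5, 51.4, 67.7 and 79.9 CPM in the 5 morphine libraries. Every morphine library was below every saline library, and the log2 difference was -1.65 (SE 0.45, adjusted p = 0.263). The difference stayed between -1.89 and -1.37 whichever library was left out. Junb, an AP-1 partner induced along with Fos, was at 58.1, 82.7 and 110 CPM with saline and at 41.5, 37.8, 36.8, 40.4 and 56.9 CPM with morphine, a log2 difference of -0.97 (SE 0.33, adjusted p = 0.427). Here too the groups did not overlap, although the highest morphine value came within about 1 CPM of the lowest saline value. Fos was at 23.6, 29.8 and 42.4 CPM with saline and at 13.6, 15.0, 11.6, 13.7 and 23.6 CPM with morphine (log2 difference -1.04, SE 0.38, adjusted p = 0.483). Its highest morphine value and lowest saline value were nearly equal. Fosb was at 10.1, 15.5 and 14.0 CPM with saline and at 8.93, 9.84, 8.97, 6.97 and 9.53 CPM with morphine (log2 difference -0.57, SE 0.15, adjusted p = 0.205), again without overlap. In this comparison 4.43% of all genes had morphine libraries wholly below the saline ones. Npas4 differed by -0.90 with an SE of 0.62, and its groups overlapped widely: the saline libraries were at 8.41, 12.6 and 45.2 CPM. Jund differed by -0.14 (SE 0.06), Fosl2 by -0.39 (SE 0.20), Jun by -0.11 (SE 0.10) and Atf3 by -0.11 (SE 0.40).

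Other early genes of adolescents on antibiotics were counted by lists that were drawn up with earlier results of these data known, so their direction is not independent evidence. Of 26 signal-induced early genes, 3 passed the threshold, all lower with morphine, and 18 were lower at an unadjusted p under 0.05, where 4.08% of all genes were. The list's median was -0.50. The 3 were Nab2, a corepressor of EGR factors (-0.43, SE 0.08, adjusted p = 0.0131), Klf10, a zinc finger factor of TGF-beta signalling (-0.81, SE 0.14, adjusted p = 0.0135), and Spry4, an inhibitor of receptor tyrosine kinase signalling (-0.73, SE 0.14, adjusted p = 0.0135). Of the 7 EGR and NR4A factors none passed, and 5 were lower at an unadjusted p under 0.05, with a log2 difference of -0.95 for Nr4a1 (SE 0.20, adjusted p = 0.0798) and -1.39 for Egr2 (SE 0.38, adjusted p = 0.268). All 15 later activity-induced neuronal genes had values below 0 with a median of -0.21, none passed, and 3 had an unadjusted p under 0.05. The 14 tested genes of the other AP-1 and ATF family had a median of -0.004 and none passed. Of 20 upstream factors, which include Srf, Creb1 and the MAP kinases, none passed and the median was 0.02. At an unadjusted p under 0.05, 2 of them were higher and 3 lower, where 7.57% of all genes differed in either direction. Heat shock genes, which respond to tissue handling as well as to stress, moved in the same direction: their 5 genes summed to 263 to 284 CPM with morphine and to 314 to 317 CPM with saline, with a median log2 difference of -0.24 and none past the threshold. The part of handling in the early genes was not tested. The cortical excitatory sums of these groups overlapped, at 5753 to 6394 CPM with morphine and 5933 to 6699 CPM with saline.

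In the other 3 comparisons with saline the differences were smaller or of mixed sign, with 4 of the 9 members below 0 in adolescents on water, 1 in adults on water and 2 in adults on antibiotics. In adolescents on water Fosl2, an AP-1 factor slower to respond than Fos, was at 22.9, 36.3, 17.2, 34.6 and 27.1 CPM with saline and at 25.1, 35.3, 41.7, 34.1 and 52.8 CPM with morphine, a log2 difference of 0.46 (SE 0.17, adjusted p = 0.265), or 0.27 by limma-voom. Its groups overlapped. Fos was nearly level in this comparison (0.03, SE 0.34), Arc was at 0.52 (SE 0.40) and Npas4 at -0.62 (SE 0.54). Of the other lists of early and related genes, 3 genes passed. The AP-1 repressor Jdp2 rose by 0.53 (SE 0.11, adjusted p = 0.0244) and the clock gene Per1 by 0.47 (SE 0.08, adjusted p = 0.00782). The growth arrest gene Gadd45g fell by 0.61 (SE 0.14, adjusted p = 0.0418). At an unadjusted p under 0.05, 15 of the 26 signal-induced early genes were higher with morphine and 1 was lower. The list's median was 0.25, and 1002 of all 19332 genes were higher by that measure. Of 9 tested genes of a separate clock marker list, 7 passed here, all higher with morphine, with a median of 0.36. The clock sums were 1184 to 1299 CPM with saline and 1399 to 1508 CPM with morphine. The part of a clock shift in the Per1 value was not tested. In adults on water Arc had the largest difference of the members, 0.93 (SE 0.47, adjusted p = 1.00), with saline libraries at 41.5, 57.6 and 169 CPM and morphine libraries at 136 to 247 CPM. In adults on antibiotics Arc was at 0.80 (SE 0.42), Fos at 0.35 (SE 0.37) and Npas4 at 0.65 (SE 0.57). Atf3 was at 0.789, 0.886, 0.872 and 0.647 CPM with morphine and at 0.179 to 0.512 CPM with saline in that comparison, without overlap, and its log2 difference of 1.16 (SE 0.38, adjusted p = 0.353) rests on 3 to 14 counts per library. Morphine libraries lay wholly above saline ones for 1.24% of all genes there.

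**Figure D2:**
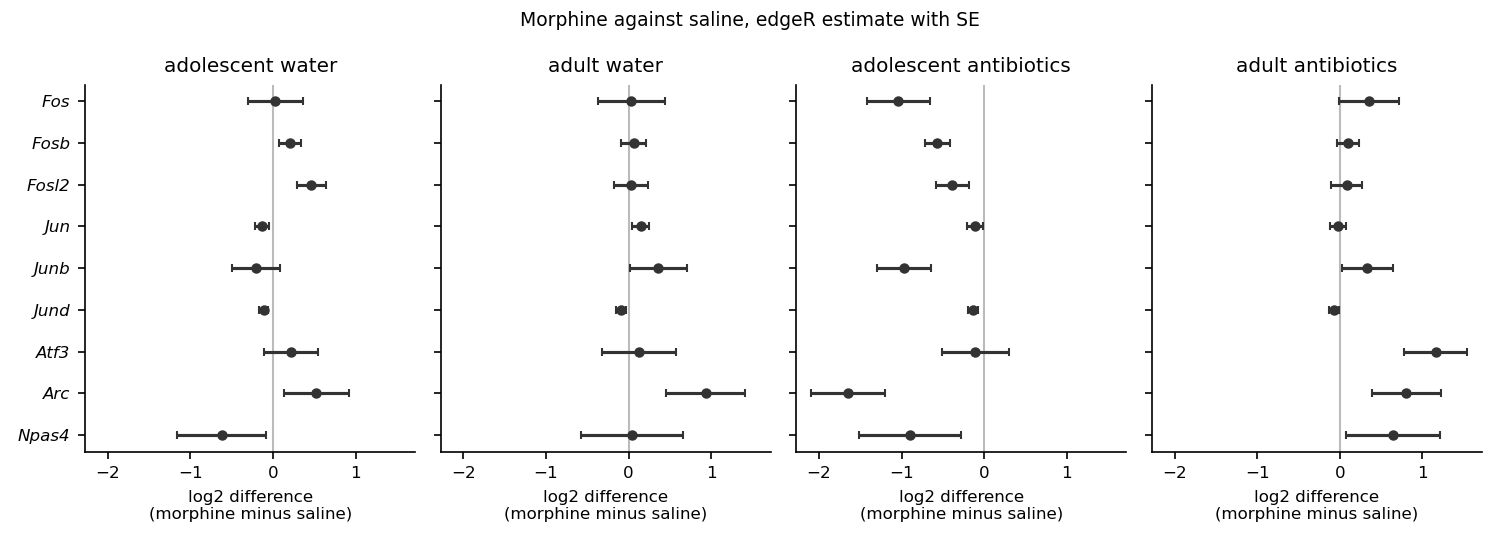
Log2 difference of morphine from saline for each gene (horizontal axis), in 1 panel for each age and drink, with points at the edgeR estimate and bars of 1 SE on either side. All 9 points lie left of 0 in adolescents on antibiotics, from -0.11 for Atf3 to -1.65 for Arc, and the points of the other 3 panels lie on both sides.

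Whether morphine's difference changed with the drink or with age was tested by 5 interactions, and no member passed any of them in the edgeR fit of the 8 groups. Between adolescents on antibiotics and on water, 0.0621% of all genes passed, and 4 members had an unadjusted p under 0.05 (6.51% of all genes): Arc (-2.17, SE 0.60, adjusted p = 0.376), Fosb (-0.77, SE 0.20, adjusted p = 0.257), Fosl2 (-0.85, SE 0.26, adjusted p = 0.527) and Fos (-1.07, SE 0.51, adjusted p = 0.764). In this same interaction 12 genes of the whole table passed, all lower with antibiotics, and 6 of them belong to the 26 signal-induced early genes. The 4 with the smallest p were Spry4 (-1.20, SE 0.18, adjusted p = 0.0017), Per1 (-0.75, SE 0.12, adjusted p = 0.00341), Nab2 (-0.61, SE 0.10, adjusted p = 0.00341) and Dusp5, a nuclear phosphatase of ERK (-1.24, SE 0.22, adjusted p = 0.00841). The list was drawn up with earlier results known. The members' median was -0.77, beside 0.01 over all genes. In adults the same interaction had 0.00517% of all genes past the threshold, 0 members at an unadjusted p under 0.05 (3.8% of all genes) and a median of 0.04.

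The difference of morphine between ages on antibiotics was above 0 for all 9 members, that is, higher in adults, with a median of 1.27 against 0.00 over all genes. Of the members, 5 had an unadjusted p under 0.05 (4.77% of all genes) and none passed the threshold by edgeR (0.0259% of all genes). Arc was at 2.45 (SE 0.61, adjusted p = 0.353), Junb at 1.31 (SE 0.45, adjusted p = 0.877) and Fos at 1.39 (SE 0.53, adjusted p = 0.998). DESeq2 and limma-voom each called Arc alone, and edgeR called it when adult antibiotics saline replicate 5, with 230 CPM of Arc, was left out (adjusted p = 0.0369). This interaction and that of antibiotics by morphine in adolescents share the adolescent antibiotics libraries, so they are not separate evidence. On water the interaction with age had 0% of all genes past the threshold and 1 member, Jun, at an unadjusted p under 0.05 (6.8% of all genes), at 0.28 (SE 0.13, adjusted p = 0.72). This value was 0.15 without adolescent water saline replicate 1, the library with striatal markers and 50.5 CPM of Jun, and 0.17 without adult water saline replicate 3. The interaction of all 3 factors had 0.0259% of all genes past the threshold, and 3 members at an unadjusted p under 0.05 (4.62% of all genes): Fosb at 0.81 (SE 0.29), Fosl2 at 0.91 (SE 0.38) and Arc at 2.04 (SE 0.86), all with adjusted p = 0.996. Without adult water saline replicate 5 the value of Arc was 1.18 (adjusted p = 0.999). DESeq2 and limma-voom called no member in the interactions other than that of age on antibiotics.

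Antibiotics were then compared with water at the same age and injection. Among adolescents given morphine 1 member passed, where 1.11% of all genes did: Fosb was lower with antibiotics. Fosb was at 8.93, 9.84, 8.97, 6.97 and 9.53 CPM with antibiotics and at 9.65, 12.8, 13.3, 13.8 and 14.1 CPM with water. It fell by 0.51 on the log2 scale (SE 0.13, adjusted p = 0.0464), and a single water library, replicate 1, lay within the antibiotic range. The call was lost in 19 of the 35 fits that left out 1 library, with adjusted p from 0.018 to 0.123 over the 35. Those 19 included each of the 5 antibiotic libraries (adjusted p 0.0602 to 0.123), water libraries 2 to 5 (0.0869 to 0.112) and 10 libraries of other groups, which share the estimate of the spread (0.05004 to 0.0554). It was also lost with no filter on low counts, with all 37 libraries and with a term for islet reads. Arc was at 102, 207, 176, 148 and 238 CPM with water and at no more than 79.9 CPM with antibiotics, so the groups did not overlap, as for 2.28% of all genes in this direction. Its log2 difference was -1.53 (SE 0.41, adjusted p = 0.0616), and it was called by DESeq2 (adjusted p = 0.0103) and limma-voom (0.0115). Fosl2 was at -0.50 (SE 0.17, adjusted p = 0.171) and Fos at -0.77 (SE 0.34, adjusted p = 0.335), and 4 members in all had an unadjusted p under 0.05, where 12.7% of all genes did. All 4 were lower, as 6.52% of all genes were.

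Among the other lists in this comparison, 6 signal-induced early genes fell and 1 rose. Spry4 fell by 0.82 (SE 0.12, adjusted p = 0.000512), Klf10 by 0.69 (SE 0.13, adjusted p = 0.00312), Nab2 by 0.32 (SE 0.07, adjusted p = 0.00844) and Dusp6, a cytoplasmic ERK phosphatase, by 0.67 (SE 0.14, adjusted p = 0.0135). The 1 that rose, named after its value was seen, was Klf6 (0.22, SE 0.05, adjusted p = 0.0394). Of the EGR and NR4A factors Nr4a1 fell by 0.72 (SE 0.18, adjusted p = 0.0464). Of the later genes the growth factor gene Bdnf fell by 0.56 (SE 0.13, adjusted p = 0.0281) and the receptor gene Gpr3 by 0.61 (SE 0.14, adjusted p = 0.0199). Of the upstream factors Mef2a rose by 0.19 (SE 0.04, adjusted p = 0.0259). The heat shock sums were 263 to 284 CPM with antibiotics and 314 to 338 CPM with water, and 1 of the 5 genes fell. In adults given morphine these sums were 250 to 308 CPM with antibiotics and 312 to 350 CPM with water. There too 1 of the 5 genes fell, with a median log2 difference of 0.03. In those adults Arc was at 0.06 (SE 0.42), Fosb at 0.26 (SE 0.14) and Fos at 0.21 (SE 0.37). The part of handling was not tested.

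In the other 3 antibiotic comparisons no member passed by edgeR, DESeq2 or limma-voom, where edgeR called 0.0103% of all genes in adolescents with saline, 0.031% in adults with saline and 1.92% in adults with morphine. At an unadjusted p under 0.05 there were 0, 0 and 1 members, against 9.85%, 8.76% and 13.8% of all genes. That 1 was Atf3, at 0.78 in adults with morphine (SE 0.37, adjusted p = 0.339). In adolescents with saline, 6 of the 9 members had values above 0 (Arc 0.63, SE 0.45, and Fos 0.30, SE 0.38). Of the 26 signal-induced early genes, 13 were higher with antibiotics there at an unadjusted p under 0.05, 0 were lower and none passed. The list's median was 0.28, and 885 of all 19332 genes were higher by that measure. The list was drawn up with earlier results of these data known.

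Adults were compared with adolescents under the same drink and injection. With antibiotics and morphine 2 members passed, where 1.87% of all genes did. Fosb was at 15.6, 16, 16.9 and 18 CPM in adults and at most 9.84 CPM in the 5 adolescents. It rose by 0.90 with age (SE 0.14, adjusted p = 0.000254), and its adjusted p stayed at or below 0.00177 whichever library was left out. Arc was at 152, 156, 159 and 249 CPM in adults and at 45.5 to 79.9 CPM in adolescents, a rise of 1.58 (SE 0.42, adjusted p = 0.04997). The Arc call lay at the threshold and was lost in 27 of 35 fits that left out 1 library, with adjusted p from 0.0251 to 0.148 over the 35. Those 27 took in all 9 libraries compared (0.0522 to 0.148) and 18 libraries of other groups (0.0503 to 0.0618). It was also lost with DESeq2's size factors (adjusted p = 0.0508), with no filter (0.1) and with a term for islet reads (0.0847). On water Arc differed with age by -0.43 with saline (SE 0.47) and by -0.02 with morphine (SE 0.39). On antibiotics with saline it was at -0.87 (SE 0.45). Fosb was at 0.28 (SE 0.15), 0.13 (SE 0.13) and 0.24 (SE 0.15) in the same order. Neither gene passed there in the edgeR fit of the 8 groups. Junb (0.75, SE 0.31, adjusted p = 0.224), Npas4 (1.21, SE 0.57, adjusted p = 0.306) and Atf3 (0.86, SE 0.35, adjusted p = 0.211) did not pass, and 6 members in all had an unadjusted p under 0.05 (15.7% of all genes). The adult libraries of these 3, like those of Fosb and Arc, lay wholly above the adolescent ones, as 2.82% of all genes did.

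With antibiotics and saline 1 member passed, where 1.39% of all genes did, and it was the 1 member with an unadjusted p under 0.05 (14.7% of all genes). Jund was at 169, 149, 149, 164 and 168 CPM in adults and at 177, 190 and 202 CPM in adolescents, without overlap, as for 6.68% of all genes in this direction. Jund fell by 0.24 with age (SE 0.06, adjusted p = 0.0379). The call was lost without adolescent antibiotics saline replicate 2 (adjusted p = 0.157) or 5 (0.282), without adult antibiotics saline replicate 2 (0.108) or 3 (0.113), and with all 37 libraries. On water Jund was at -0.15 with saline (SE 0.06, adjusted p = 0.187) and at -0.13 with morphine (SE 0.06, adjusted p = 0.349), and with antibiotics and morphine at -0.18 (SE 0.06, adjusted p = 0.113), so its 4 estimates had 1 sign. On water the edgeR fit of the 8 groups called no member at either injection, where 3.39% of all genes passed with saline and 0.626% with morphine. There were 2 members at an unadjusted p under 0.05 in each (19.2% and 11.8% of all genes). Jun, the first partner of Fos in AP-1, was at -0.34 with saline (SE 0.10, adjusted p = 0.0544) and was called by DESeq2 (adjusted p = 0.046), by edgeR with a term for islet reads (0.0456) and in 4 of the 35 edgeR fits that left out 1 library (0.0233 to 0.0467). Those 4 left out adolescent water saline replicate 4 or 5, adolescent water morphine replicate 5 or adult antibiotics saline replicate 5. This value includes adolescent water saline replicate 1, the library with striatal markers, whose 50.5 CPM of Jun exceeds the 33.6 to 38.1 CPM of its group. Without it the difference was -0.21 (adjusted p = 0.149). Limma-voom called Junb and Jund there, and neither DESeq2 nor limma-voom called a member on water with morphine.

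Over all 8 groups at once, 3 of the 9 members differed, where 16.5% of all genes did: Fosb (adjusted p = 0.000214), Jund (0.000886) and Arc (0.0453). Fosb and Jund passed in all 35 fits that left out 1 library, and Arc was lost in 27 of them. The group means of Fosb ran from 8.85 ± 1.12 CPM (SD, n = 5) in adolescent antibiotics morphine to 16.6 ± 1.07 CPM (SD, n = 4) in adult antibiotics morphine. Those of Arc ran from 60.2 ± 13.7 CPM (SD, n = 5) in adolescent antibiotics morphine to 188 ± 69.0 CPM (SD, n = 3) in adolescent antibiotics saline. Those of Jund ran from 148 ± 10.6 CPM (SD, n = 5) in adult water morphine to 189 ± 12.5 CPM (SD, n = 3) in adolescent antibiotics saline. Npas4 and Fos did not pass (adjusted p = 0.63 and 0.359). The lowest group mean of Npas4 was 12 ± 4.26 CPM (SD, n = 5), in adolescent antibiotics morphine, and the highest 27.6 ± 7.92 CPM (SD, n = 4), in adult antibiotics morphine. Within the adult water saline group its SD was 22.1 CPM.

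Much of the spread within groups followed the replicate number in the titles, which runs from 1 to 5. The labels do not say what the number marks. Npas4 was highest in the library numbered 5 in 7 of the 8 groups, and Fos and Arc in 6 of the 8. For Npas4 the libraries numbered 5 were at 33.6, 26.8, 45.2 and 19.3 CPM in the adolescent groups (water saline, water morphine, antibiotics saline, antibiotics morphine) and at 48.1, 40.2, 42.8 and 38.5 CPM in the adult ones. Those numbered 1 were at 9.66, 7.18, 8.41 and 8.12 CPM in the same adolescent groups and at 7.44, 15.4, 8.84 and 26.0 CPM in the adult ones. In every group the library numbered 5 was above the library numbered 1. In log2 CPM, all 8 libraries numbered 5 lay above their group mean, by 1.00 ± 0.44 (SD, n = 8), and all 8 numbered 1 lay below it, by an average deviation of -0.77 ± 0.42 (SD, n = 8). Those numbered 2 and 3 averaged -0.30 each, and the 5 numbered 4 averaged 0.47 ± 0.36 (SD, n = 5).

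A term for the number was added to the edgeR fit after this was seen, with the 8 groups kept. It passed the threshold for only 2 of 19332 genes in that fit (0.0103%), and these were Npas4 (F = 22.9, adjusted p = 0.00159) and Fos (F = 16.1, adjusted p = 0.0137). The 9 genes and the term were both chosen with results of these data known, so the p-values describe a pattern already seen. Fitted in this way, the libraries numbered 5 exceeded those numbered 1 by 1.78 for Npas4, 1.05 for Fos, 1.08 for Arc, 0.76 for Junb, 0.36 for Fosb and 0.03 for Jund, on the log2 scale. Among all genes by p, the term ranked Arc 7th, Fosb 10th and Junb 18th without passing (adjusted p = 0.596, 0.596 and 0.731), and Jund 16928th. At an unadjusted p under 0.05 it took 6 of the 9 members, against 4.67% of all genes. The 6 were Npas4, Fos, Arc, Fosb, Junb and Jun. Jun did not rise from number 1 to number 5 (-0.09), and all 8 of its libraries numbered 1 lay above their group mean. The term took 4 of 7 EGR and NR4A factors, among them Egr1, and 8 of 26 signal-induced early genes, led by Btg2 (adjusted p = 0.15) and Ier2 (0.274). It took 0 of 14 other AP-1 and ATF genes, 0 of 15 later activity-induced genes and 1 of 20 upstream factors. Npas4 passed in each of the fits that left out 1 library. Fos did not pass without adolescent antibiotics morphine replicate 5 (adjusted p = 0.063) or adult water saline replicate 5 (0.0714), nor with no filter (0.0657). DESeq2 called Npas4, Fos and Arc (adjusted p = 0.00291 for Arc).

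Depth and tissue makeup were measured beside this pattern. The libraries numbered 5 held 15406356 to 21899432 counts and those numbered 1 held 13490318 to 27898977 counts, so the ranges overlap. The cortical excitatory sum had a median of 5863 CPM in the libraries numbered 5 and 6105 CPM in those numbered 1. The heat shock sum had medians of 313 and 319 CPM, and the sum of 9 clock genes medians of 1382 and 1411 CPM. Their part in the pattern was not tested. Because adolescent antibiotics saline has only the numbers 1, 2 and 5, and adult water saline only 1, 3 and 5, group means of Npas4, Fos and Arc there weigh the number 5 more than in groups of 5.

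**Figure D3:**
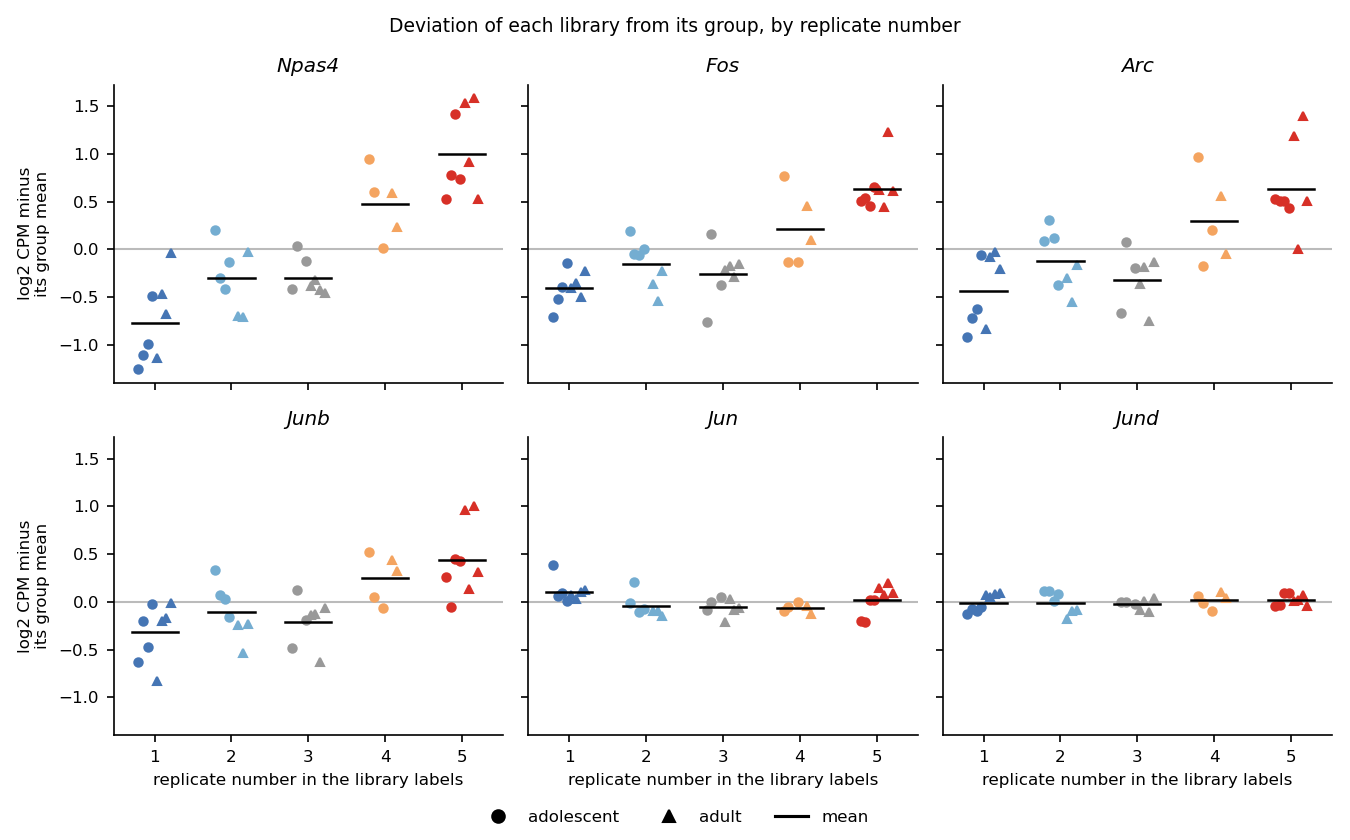
Log2 CPM of each library minus the mean of its group (vertical axis) by the replicate number in the labels (horizontal axis) for 6 genes, with circles for adolescent libraries, triangles for adult ones and bars at the mean. Npas4 and Fos lie above 0 in all 8 libraries numbered 5 and below 0 in all 8 numbered 1, while Jund stays within 0.2 of 0 throughout.

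The members were then correlated with each other over the 35 libraries, as log2 CPM. Of 36 pairs, 17 had an adjusted p under 0.05 for Pearson's r by a permutation test (two-sided, 100000 permutations, adjusted over the 36). Fos and Junb had r = 0.86 and Spearman's rho = 0.90, and Junb and Arc had r = 0.87 and rho = 0.85. For both pairs each p was 1e-05, the smallest these permutations can give, and the adjusted p was 5.14e-05 for r and 6e-05 for rho. Fos correlated with Npas4 at r = 0.80 and rho = 0.76, and with Arc at r = 0.83 and rho = 0.86, with the same p values. Without the 2 libraries farthest from the median of the first gene, r was 0.83 for Fos and Junb, 0.85 for Junb and Arc, 0.75 for Fos and Npas4 and 0.82 for Fos and Arc. Within groups, that is after the group means were taken off, these 4 values were 0.87, 0.92, 0.89 and 0.90. With the number taken off as well they were 0.72, 0.83, 0.60 and 0.74, so the genes also moved together within groups and within numbers. The p values treat the libraries as 1 set, and all genes of a library share its depth and RNA.

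Fosb followed the same genes less closely over all libraries than within groups. Its r with Fos was 0.47 (rho = 0.45, permutation p = 0.00436, adjusted p = 0.0112 for r and 0.0187 for rho) over all libraries, 0.75 within groups and 0.63 with the number taken off as well. Fosl2 correlated with Fos at r = 0.66 (rho = 0.66, adjusted p = 5.14e-05 and 0.000206) and at 0.65 within groups. Jun did not move with Fos (r = 0.13, rho = 0.19, permutation p = 0.46, adjusted p = 0.552) and was opposite in sign to Fosb (r = -0.40, rho = -0.43, adjusted p = 0.0371 and 0.0231), by -0.31 within groups. Jund had r = 0.04 with Arc over all libraries (rho = 0.01, permutation p = 0.838, adjusted p = 0.852) and 0.43 within groups. Jun and Jund, both members of the Jun family, had r = 0.42 (rho = 0.54, adjusted p = 0.0324 and 0.0024), which was 0.16 within groups.

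**Figure D4:**
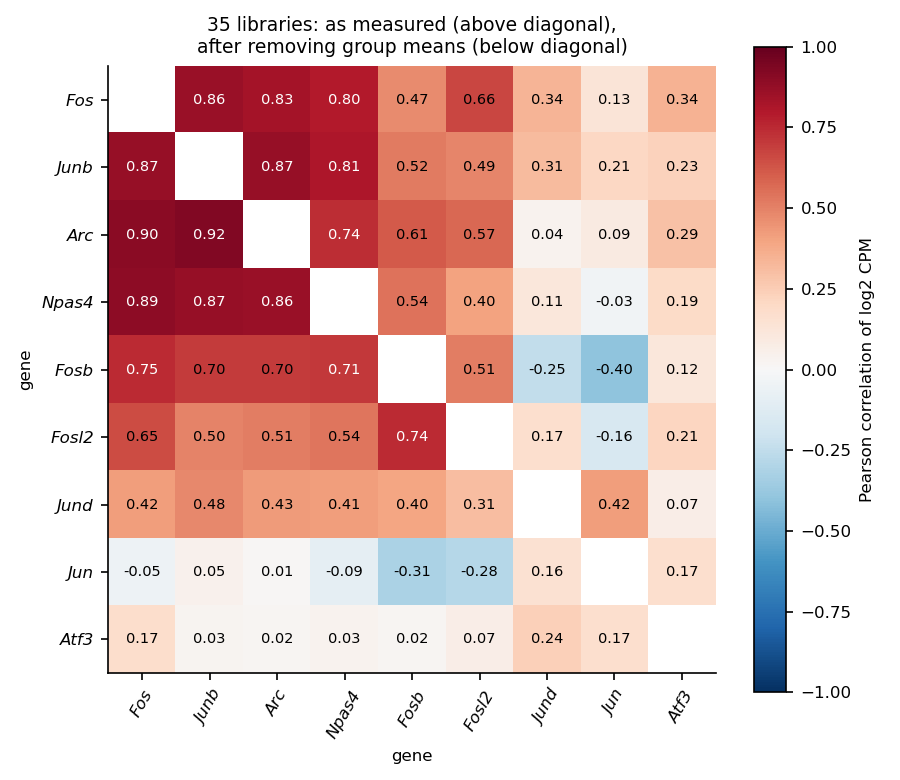
Pearson correlation of log2 CPM between each pair of the 9 genes over 35 libraries, as measured (above the diagonal) and after group means were removed (below it), with the colour scale from -1 to 1. Fos, Junb, Arc and Npas4 form a block with values from 0.74 to 0.87 above the diagonal and from 0.86 to 0.92 below it, while Jun and Atf3 stay between -0.31 and 0.24 below it.

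The genes outside the members with the pattern most like Fos over the 35 libraries, by Pearson's r of log2 CPM, were Ier2 (0.86), Egr1 (0.85), Egr2 (0.84), Nr4a1 (0.82) and Dusp1 (0.78). All 5 belong to the lists of early genes. For Npas4 they were Btg2 (0.90), an antiproliferative early gene, Ier2 (0.83), Dusp1 (0.73), 1700016P03Rik (0.71) and Ccn1 (0.70). For Jund they were Gm11175 (0.90), Chchd2 (0.87), Prr7 (0.86), Scand1 (0.85) and 1110065P20Rik (0.84), none of them on the early gene lists. Within groups the leading value of each set was 0.86 for Ier2 with Fos, 0.88 for Btg2 with Npas4 and 0.79 for Gm11175 with Jund. These values are picked as the highest of all genes tested and carry no test.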

How the data were processed

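Polyadenylated RNA of mouse brain was measured in 37 libraries. The authors deposited 1 table of whole-number counts by gene, not normalized. STAR 2.7.10a and DESeq2 were used on the mm10 build, per the submitters' processing notes, which do not say what DESeq2 did. Whether counting used strand, and which annotation it used, is not given in the labels. A reference table of gene identifiers and symbols matched 52073 of 56980 identifiers of the count table, and those without a symbol held 3.86% of the counts. Exon lengths came from GENCODE M21. Columns were matched to samples by the library names in the labels, with none left unmapped, and replicate numbers came from the sample titles.

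Libraries under 1000000 counts were left out. The fit was made with edgeR 4.0.16 in R 4.3.3 (TMM scaling, filterByExpr, robust quasi-likelihood fit of 35 libraries, 1 mean per group, 27 residual degrees of freedom). The 12 comparisons of 2 groups, 5 interactions and the test over 8 groups were adjusted by Benjamini-Hochberg over 19332 genes. The SE is the log2 difference divided by the square root of F. CPM uses TMM-scaled totals, and log2 CPM a prior count of 2. Alternatives were DESeq2 1.42.0, DESeq2 size factors in edgeR, limma-voom (limma 3.58.1) with sample weights, no filter, all 37 libraries, a fit of just the groups compared, a block for the replicate number, a term for islet reads (over 20 counts of Ins1 and Ins2) and leaving out each library in turn. The number term was added after the data were seen. The procedure was tested on simulated data. Correlations used SciPy 1.17.1.

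The 9 genes, the gene lists and the marker lists were chosen with earlier results of these data known. From each list the text names, per comparison, up to 4 genes by smallest p, and for likeness the 5 genes of highest r with Fos, Npas4 and Jund. No pair of libraries of 1 group agreed within counting noise (lowest chi-square per degree of freedom 1.78).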

Additional observations from a re-analysis of the deposited data

Results flagged for a closer look

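A library was singled out where its gap to the nearest other library of its group, divided by the range of the group, exceeded Dixon's critical value at the 95% level. The rule was applied to 54 sets of 4 or 5 libraries, and chance alone singles out about 1 in 20. It took 10 values, all of them the highest of their group. For Fos they were 23.6 CPM in adolescent antibiotics morphine replicate 5 (others 11.6 to 15.0), 39.1 CPM in adult antibiotics saline replicate 5 (others 11.4 to 17.8) and 35.6 CPM in adult antibiotics morphine replicate 5 (others 19.7 to 20.8). For Arc they were 230 CPM in adult antibiotics saline replicate 5 (others 51.9 to 85.7), 249 CPM in adult antibiotics morphine replicate 5 (others 152 to 159) and 247 CPM in adult water morphine replicate 4 (others 136 to 168). Npas4 was at 42.8 CPM in adult antibiotics saline replicate 5 (others 8.63 to 16.7). Junb was at 56.9 CPM in adolescent antibiotics morphine replicate 5 (others 36.8 to 41.5). Fosl2 was at 32.8 CPM in adult water morphine replicate 4 (others 27.4 to 28.8). Jun was at 50.5 CPM in adolescent water saline replicate 1 (others 33.6 to 38.1), the library with striatal markers. The values of 1 library are not independent of each other, since these genes are correlated.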

How the results depend on the processing

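Of 1588 refits of single genes (37 differences with an unadjusted p under 0.05 in edgeR, each under the alternatives), 0 reversed in sign, 1501 stayed on their side of the threshold, 58 lost it and 29 gained it. The differences were picked by p and most refits left out 1 library, so reversals were unlikely beforehand. Fosb for antibiotics in adolescents with morphine was lost under 22 of 43 alternatives. Arc for age on antibiotics with morphine was lost under 30 of 43. The number of the 9 genes past the threshold changed as follows, and the cause was not tested. For morphine in adolescents on antibiotics it was 0, and 2 with limma-voom. For antibiotics in adolescents with morphine it was 1, and 2 with DESeq2, limma-voom or a fit of just the 2 groups, 0 with no filter, with all 37 libraries and with the islet term, and 0 to 2 when 1 library was left out. For age on water with saline it was 0, and 1 with DESeq2 and with the islet term, 2 with limma-voom, and 0 to 1 when 1 library was left out. For age on antibiotics with saline it was 1, and 0 with all 37 libraries, 3 with limma-voom, and 0 to 1 when 1 library was left out. For age on antibiotics with morphine it was 2, and 1 with DESeq2 size factors and with no filter, and 1 to 2 when 1 library was left out. Junb and Jund were each called there under 1 of 43 alternatives. In neither case was this the block or a fit that left out 1 library. For morphine by age on antibiotics it was 0, and 1 with DESeq2 and with limma-voom, and 0 to 1 when 1 library was left out. Over the 8 groups it was 3, and 5 with limma-voom, and 2 to 3 when 1 library was left out. For the number term it was 2, and 3 with DESeq2, 1 with no filter, and 1 to 3 when 1 library was left out.

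The replicate numbers did not pair the libraries across the transcriptome: deviations from group means of same-numbered libraries in different groups had a median correlation of 0.01 over 108 pairs, 14 pairs were over 0.1, and 9 of 35 libraries correlated best with their own number. With the replicate number as a block the count was 2 (Fosb and Arc) for morphine in adolescents on antibiotics, 3 (Fos, Fosb and Arc) for antibiotics in adolescents with morphine, 1 (Jun) for age on water with saline, 1 for age on antibiotics with saline, where Jund was lost (adjusted p = 0.0529) and Fos gained (0.0486), 2 (Fosb and Arc) for antibiotics by morphine in adolescents, 1 (Arc) for morphine by age on antibiotics, 3 (Fosb, Arc and Npas4) for age on antibiotics with morphine, and 5 over the 8 groups. Depth limits Atf3 most, with 2 to 24 counts per library, and the spread between libraries, not depth, limits Npas4, Arc, Fos and Junb.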
